A study of Arabidopsis thaliana with 12 samples.

Results

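The 8 genes described here encode group A basic leucine zipper (bZIP) transcription factors of Arabidopsis thaliana: ABI5, EEL, AREB3 and DPBF2 of the seed-type subgroup, and the ABA-responsive element binding factors ABF1, ABF2, ABF3 and ABF4. They were taken by identifier from a table of read counts with 36795 entries, and all 8 were found in it. Of these, 7 passed the filter on low counts and were tested among 19612 genes, while DPBF2 did not. RNA came from whole germinating seeds of 3 lines. The amiR-HsMYO line, called HsMYO here, was the control and carries an artificial microRNA of its own. The amiR-SYD-1 and amiR-SYD-2 lines, called SYD1 and SYD2, carry artificial microRNAs against SPLAYED (SYD), which encodes an ATPase that remodels chromatin, of the SWI/SNF type. Seeds were kept in the cold (4 °C) and dark for 3 days and then held for 24 h in a cycle of 16 h light and 8 h dark, on medium that held 2 µM of the hormone (±)-abscisic acid (ABA) or, as the control without ABA, 0.002% ethanol. Each of the 6 groups had 2 libraries, which the labels call biological replicates. The promoter that drives the microRNAs, and whether each line descends from 1 transformant, are not stated in the sources used. Since whole seeds were used, fewer cells of a type and less RNA per cell cannot be told apart.

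ABA is bound by PYR/PYL receptors, which then inhibit clade A PP2C phosphatases. The SnRK2 kinases freed in this way phosphorylate group A bZIP factors, which bind ABA-responsive elements with an ACGT core as dimers and switch on genes for dehydration tolerance. In seeds ABI5 is the member best known for holding germinated embryos in growth arrest while ABA persists. EEL is known to compete with ABI5 at the EM1 promoter, DPBF2 (also called bZIP67) acts in the maturing embryo, and ABF2, ABF3 and ABF4 are known mainly from the ABA response of seedlings and leaves under water stress.

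Libraries held 18713555 to 30012796 counts, of which the 8 genes together took 0.0099 to 0.0403%. The floor of 3 counts equalled between 0.101 and 0.162 CPM, by library (counts scaled to library size, here with TMM factors). SYD (AT2G28290) was lower in both knockdown lines. Its level over both lines was 1.75-fold below HsMYO without ABA (log2 difference -0.81 ± 0.08 SE, adjusted p = 1.4e-06) and by a smaller margin on ABA (-0.58 ± 0.08, adjusted p = 3.7e-05), with no overlap of libraries.

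The DNA before each gene start is shown for 4 members, because the level of ABI5 and of ABF1 differed between lines, ABF2 was the member that fell on ABA, and DPBF2 was close to undetected. The windows are the 250 bases before the annotated start in TAIR10.1, read 5′ to 3′ on the strand of the gene. They are chr2:15207637-15207886 (minus strand) for ABI5, chr1:18399753-18400002 (plus strand) for ABF1, chr1:17167925-17168174 (minus strand) for ABF2 and chr3:16081907-16082156 (minus strand) for DPBF2. Capitals mark ACGTG, the core of the ABA-responsive element, on either strand (read as CACGT from the other strand, and as CACGTG where both overlap), and in DPBF2 also CATGCA, the core of the RY element bound by B3 factors of the embryo.
ABI5: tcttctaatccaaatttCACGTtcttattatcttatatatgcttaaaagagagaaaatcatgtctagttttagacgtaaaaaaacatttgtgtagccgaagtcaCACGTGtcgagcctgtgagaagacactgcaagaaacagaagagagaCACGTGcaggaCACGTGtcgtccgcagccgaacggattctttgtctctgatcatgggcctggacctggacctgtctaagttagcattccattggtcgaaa
ABF1: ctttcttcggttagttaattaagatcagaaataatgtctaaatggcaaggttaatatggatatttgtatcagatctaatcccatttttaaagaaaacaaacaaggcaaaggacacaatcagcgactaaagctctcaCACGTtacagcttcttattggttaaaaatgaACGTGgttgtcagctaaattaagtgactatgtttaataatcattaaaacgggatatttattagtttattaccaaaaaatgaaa
ABF2: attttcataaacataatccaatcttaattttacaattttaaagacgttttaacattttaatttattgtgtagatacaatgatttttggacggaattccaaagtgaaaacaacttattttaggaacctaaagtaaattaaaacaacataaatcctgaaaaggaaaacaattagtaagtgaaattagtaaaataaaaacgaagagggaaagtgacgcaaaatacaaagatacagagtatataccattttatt
DPBF2: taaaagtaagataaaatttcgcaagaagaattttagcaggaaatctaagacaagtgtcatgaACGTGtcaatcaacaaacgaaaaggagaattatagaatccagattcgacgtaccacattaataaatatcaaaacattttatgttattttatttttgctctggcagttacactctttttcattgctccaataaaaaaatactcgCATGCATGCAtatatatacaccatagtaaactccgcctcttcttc

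ABI5 had 7 ACGTG matches in this window, counted on both strands. They came from 3 copies of the palindrome CACGTG (the G-box), each matching on both strands, and 1 single match. ABF1 had 2 matches, ABF3, ABF4 and DPBF2 had 1 each, and ABF2, EEL and AREB3 had 0. Among the windows before 27443 protein-coding genes, 22.91% held at least 1 ACGTG match, 8.844% at least 2, and 6.486% a CACGTG. As 1 CACGTG counts as 2 matches, the 8.844% includes all windows with a CACGTG. The share of windows with 2 separate sites, as in ABF1, was not counted. DPBF2 was the only one of the 8 windows with CATGCA (3 overlapping matches), which 8.432% of all windows held. The window of EEL lay entirely in exons of the neighbouring gene AT2G41060, and 138 bases of that of AREB3 in exons of AT3G56860. ABI5 has 3 annotated transcript starts spread over 976 bases, and windows of 500 bases before them held 2 to 7 ACGTG matches. EEL has 4 starts spread over 1068 bases, with 0 matches before any of them. These are matches of letters, and binding was not measured.

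**Figure D1:**
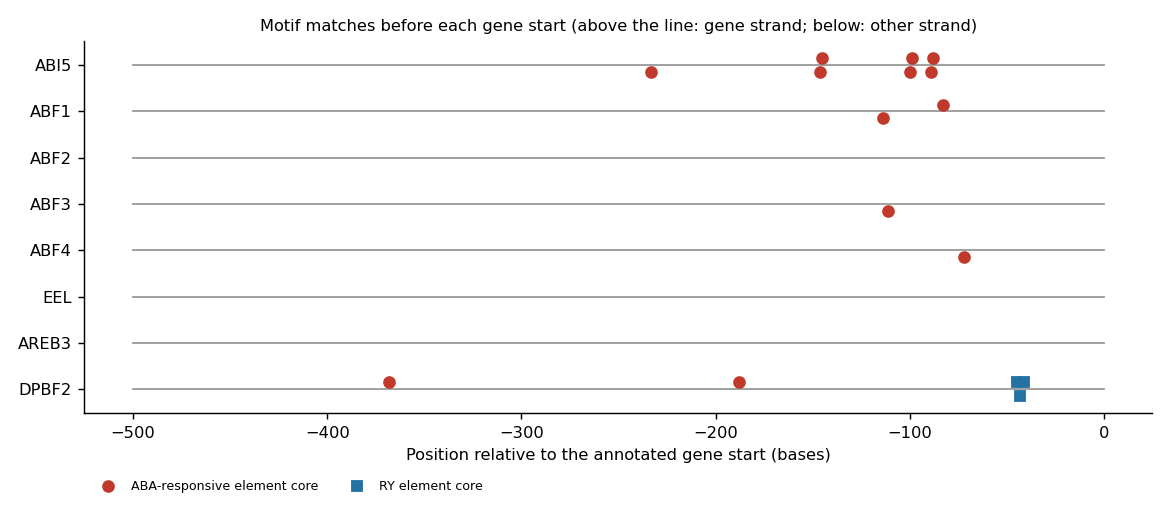
Positions of ACGTG (red circles) and CATGCA (blue squares) in the 500 bases before the annotated start of each gene, in bases relative to that start, with matches on the gene's strand above the line and on the other strand below. ABI5 has 7 ACGTG matches, all within 250 bases of the start, and ABF2, EEL and AREB3 have 0.

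The first question is what ABA did to these genes in seeds with normal SYD. ABI5 and EEL rose most, ABF3 rose about 2-fold, ABF1, ABF4 and AREB3 rose by less, ABF2 fell slightly and DPBF2 stayed near 0 counts. In HsMYO 6 of 7 tested members rose and 1 fell, against 26.9% of all tested genes that rose and 27.1% that fell. The median log2 change of the members was 0.88, against 0.02 over all tested genes. The libraries with and without ABA did not overlap for any of the 7 members in any of the 3 lines. The same held for 75.3% of all tested genes in HsMYO, 76.0% in SYD1 and 71.6% in SYD2, so this separation is common among all genes.

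ABI5 (AT2G36270, chromosome 2, 15204659 to 15207636, minus strand) stood at 31.7 and 26.0 CPM in the HsMYO libraries without ABA and at 211 and 208 CPM on ABA. In SYD1 it stood at 20.6 and 19.4 CPM without ABA and at 162 and 165 CPM with it. In SYD2 the values were 18.6 and 21.4 CPM, and 169 and 157 CPM. The HsMYO libraries were the highest in each treatment and the SYD1 and SYD2 libraries lay together below them. The rise on ABA was 7.26-fold in HsMYO (log2 2.86 ± 0.09 SE, adjusted p = 1.5e-12 by edgeR's quasi-likelihood test), 8.18-fold in SYD1 (3.03 ± 0.10, adjusted p = 2.8e-12) and 8.09-fold in SYD2 (3.02 ± 0.09, adjusted p = 2.8e-12). In HsMYO this change lay at the 98.8th percentile of all tested genes.

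EEL (AT2G41070, chromosome 2, 17129753 to 17132386, plus strand), the factor known to oppose ABI5 at EM1, stood at 4.81 and 5.43 CPM in HsMYO without ABA and at 31.7 and 34.2 CPM on ABA. In SYD1 it went from 5.74 and 6.03 CPM to 30.9 and 29.4 CPM. In SYD2 it went from 6.03 and 6.04 CPM to 31.5 and 27.6 CPM. Without ABA all knockdown libraries lay above those of HsMYO, and on ABA all lay below. Neither of these gaps was called by edgeR over both knockdown lines. They were 0.21 in log2 in ethanol (adjusted p = 0.15) and -0.14 with the hormone (adjusted p = 0.14). The rise was 6.41-fold in HsMYO (log2 2.68 ± 0.10, adjusted p = 7.1e-12), 5.12-fold in SYD1 (2.36 ± 0.11, adjusted p = 7.5e-11) and 4.90-fold in SYD2 (2.29 ± 0.10, adjusted p = 5.7e-11). EEL shares 23 exonic bases with AT2G41060 on the same strand, which had 558 to 1111 counts per library and changed on ABA by 0.11 to 0.27 in log2. The part of the shared bases in the counts was not measured.

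ABF3 (AT4G34000, chromosome 4, 16295334 to 16298285, plus strand), a regulator of the drought response, stood at 26.8 and 28.0 CPM in HsMYO without ABA and at 54.4 and 67.3 CPM on ABA. The SYD1 libraries had 26.0 and 31.0 CPM, and 61.2 and 64.7 CPM on ABA, and those of SYD2 had 23.7 and 32.2 CPM, and 66.6 and 69.2 CPM. The lines overlapped without ABA. On ABA the HsMYO libraries overlapped those of both knockdown lines, and both SYD1 libraries lay below those of SYD2. ABF3 rose 2.22-fold in HsMYO (log2 1.15 ± 0.12, adjusted p = 1.1e-06), 2.21-fold in SYD1 (1.14 ± 0.13, adjusted p = 2e-06) and 2.41-fold in SYD2 (1.27 ± 0.12, adjusted p = 5.4e-07).

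ABF1 (AT1G49720, chromosome 1, 18400003 to 18402628, plus strand) was one of the weaker members by count. It had 4.15 and 4.80 CPM in HsMYO without ABA and 7.29 and 9.28 CPM on ABA. In SYD1 it had 8.39 and 8.88 CPM, and 13.5 and 15.6 CPM on ABA. In SYD2 it had 9.73 and 10.8 CPM, and 12.3 and 13.2 CPM on ABA. The knockdown lines without ABA thus stood at or above HsMYO on ABA, with SYD1 overlapping it and SYD2 above it. ABF1 rose on ABA 1.84-fold in HsMYO (log2 0.88 ± 0.15, adjusted p = 0.00011) and 1.69-fold in SYD1 (0.75 ± 0.13, adjusted p = 0.00025). In SYD2 the log2 change was 0.31 ± 0.13 and did not pass the test (adjusted p = 0.06, unadjusted p = 0.027, 95% interval 0.04 to 0.58). It passed without the HsMYO on ABA replicate 1 (adjusted p = 0.033) or replicate 2 (0.036).

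ABF4 (AT3G19290, chromosome 3, 6687042 to 6690123, plus strand), which acts with ABF3 in the water stress response, lay between 8.88 and 11.3 CPM in the 6 libraries without ABA and between 13.1 and 16.5 CPM in the 6 on ABA. Its log2 change was 0.66 ± 0.11 in HsMYO (adjusted p = 0.00016), 0.49 ± 0.12 in SYD1 (adjusted p = 0.0035) and 0.54 ± 0.12 in SYD2 (adjusted p = 0.0017). AREB3 (AT3G56850, chromosome 3, 21046234 to 21048614, minus strand), a seed-expressed relative of ABI5, lay between 21.8 and 26.9 CPM without ABA and between 33.8 and 37.9 CPM with it. Its log2 change was 0.63 ± 0.08 in HsMYO (adjusted p = 6.7e-06), 0.61 ± 0.08 in SYD1 (adjusted p = 2.2e-05) and 0.48 ± 0.08 in SYD2 (adjusted p = 0.00016). For both genes the libraries with ABA stood above all libraries without it, whichever the line.

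ABF2 (AT1G45249, chromosome 1, 17165125 to 17167924, minus strand) was the one tested member that fell on ABA. It had 8.08 and 8.82 CPM in HsMYO without ABA and 6.89 and 6.84 CPM with it. In SYD1 it went from 10.4 and 9.73 CPM to 7.98 and 7.77 CPM, and in SYD2 from 8.20 and 9.57 CPM to 7.19 and 7.03 CPM. Within each line both ABA libraries lay below both others. The log2 change was -0.30 ± 0.12 in HsMYO (adjusted p = 0.039), -0.35 ± 0.12 in SYD1 (adjusted p = 0.024) and -0.33 ± 0.12 in SYD2 (adjusted p = 0.035). These calls were near the threshold and ended with DESeq2 (adjusted p = 0.13, 0.11 and 0.16). The call in HsMYO ended without any 1 of its own 4 libraries (adjusted p = 0.052 to 0.22), that in SYD1 likewise (0.05 to 0.14), and that in SYD2 without either of its ABA libraries (0.1 and 0.13), its replicate 2 without ABA (0.29) or SYD1 on ABA replicate 1 (0.052).

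DPBF2 (AT3G44460, chromosome 3, 16079432 to 16081906, minus strand) had 1 count in all in HsMYO without ABA, 1 in HsMYO on ABA, 3 in SYD1 without ABA, 5 in SYD1 on ABA and 0 in SYD2 under either treatment. In all but 1 library its count was under 3, the floor used here, so no difference was detectable at this depth.

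The counts of members called were similar in the knockdown lines. In SYD1 6 of 7 members rose (21.7% of all tested genes rose) and 1 fell (25.2%). In SYD2 5 of 7 rose (19.4%) and 1 fell (23.6%). The median change of the members was 0.75 in SYD1 and 0.54 in SYD2, against 0.00 over all genes in both.

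**Figure D2:**
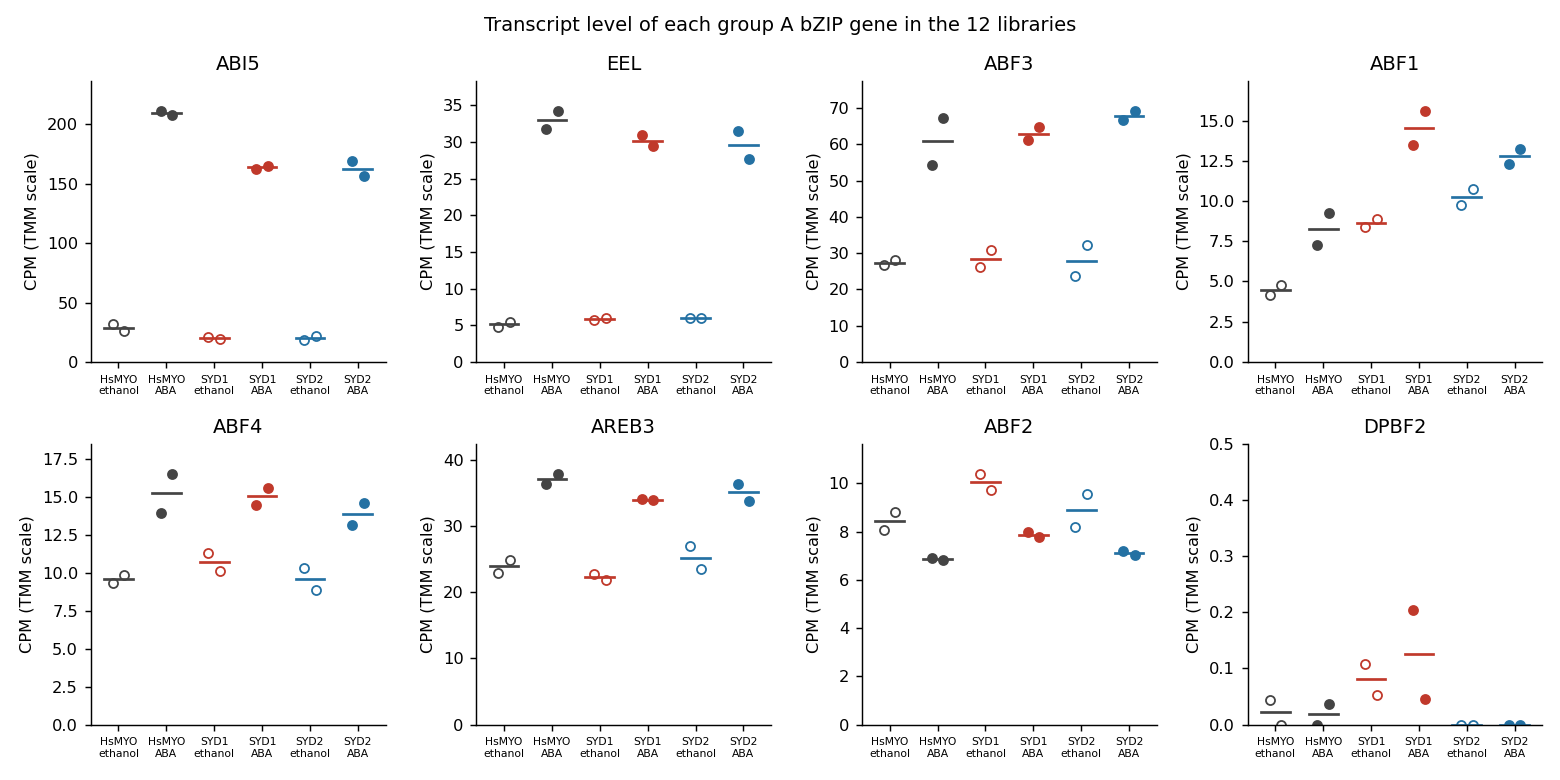
CPM on the TMM scale for each of the 8 genes in the 12 libraries; open circles are libraries in ethanol, filled circles libraries on ABA, colours mark the line and the bars are group means (n = 2). ABI5 stands near 209 CPM in HsMYO on ABA and near 163 CPM in both SYD lines, ABF1 is higher in the SYD lines than in HsMYO under each treatment, and the DPBF2 axis ends at 0.5 CPM.

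**Figure D3:**
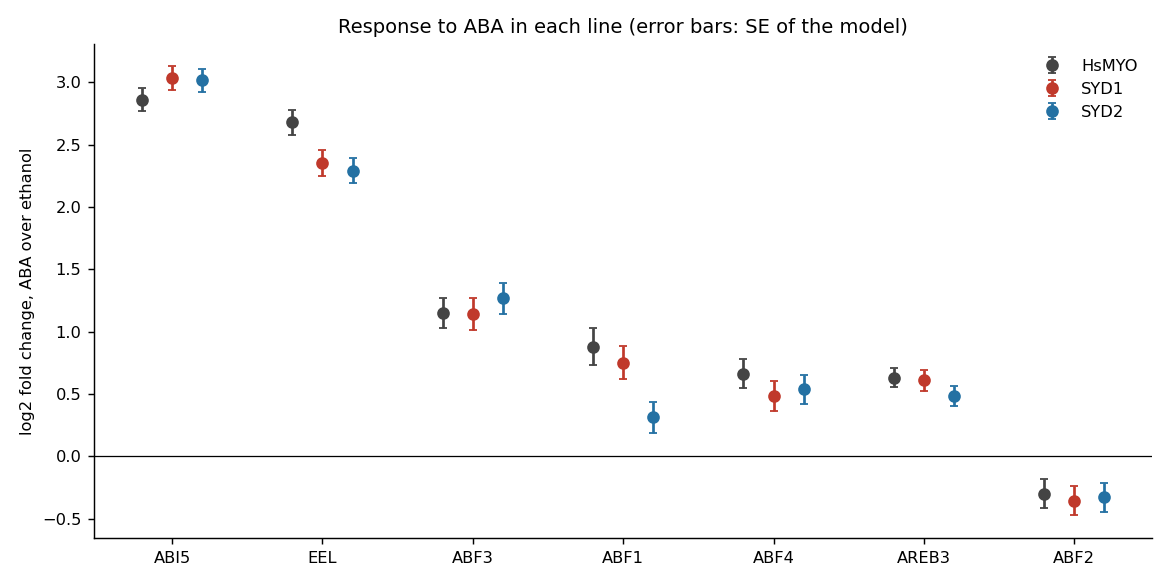
The log2 fold change of ABA over ethanol for the 7 tested members in HsMYO (grey), SYD1 (red) and SYD2 (blue), with error bars for the standard error of the model. ABI5 changed by 2.86 to 3.03, and ABF2 lies below 0 in all 3 lines.

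Levels can be compared between genes once divided by exon length (CPM per kb of annotated exon), as a description with no test. Without ABA in HsMYO, ABI5 (13.7 ± 1.93 CPM per kb, SD, n = 2), AREB3 (12.4 ± 0.735) and ABF3 (11.2 ± 0.334) headed the order. The libraries of ABI5 and AREB3 overlapped, and those of ABF3 lay below both. They were followed by ABF4 (3.67 ± 0.143), EEL (3.39 ± 0.291) and ABF2 (3.27 ± 0.203), each overlapping the next, and by ABF1 (2.60 ± 0.269), which overlapped none. On ABA ABI5 stood far above the rest in HsMYO at 99.3 ± 1.19 CPM per kb, before ABF3 (24.9 ± 3.75), EEL (21.8 ± 1.16), AREB3 (19.2 ± 0.566), ABF4 (5.83 ± 0.691), ABF1 (4.82 ± 0.818) and ABF2 (2.66 ± 0.0129). ABF3 overlapped EEL, and ABF4 overlapped ABF1. In the knockdown lines without ABA, ABI5 was not first by mean level. It stood at 9.49 ± 0.414 CPM per kb in SYD1 and 9.50 ± 0.941 in SYD2, beneath AREB3 (11.5 ± 0.334 and 13.0 ± 1.26) and ABF3 (11.7 ± 1.43 and 11.4 ± 2.45), though its libraries overlapped those of ABF3 in SYD2.

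The summed level of the 8 genes was nearly the same in the 3 lines without ABA, at 50.2 ± 0.0279 CPM per kb in HsMYO, 49.6 ± 0.473 for SYD1 and 51.0 ± 2.56 for SYD2. On ABA it was 178 ± 5.80, 158 ± 2.04 and 158 ± 5.27 CPM per kb, so the HsMYO libraries stood above those of both knockdown lines. ABI5 made up 27.3 ± 3.86% of the sum in HsMYO without ABA and 55.7 ± 2.48% on ABA. Its share was 19.1 ± 1.02% and 49.1 ± 0.127% in SYD1 and 18.6 ± 0.914% and 48.8 ± 0.901% in SYD2. ABF1 took 5.18 ± 0.532% in HsMYO without ABA, against 10.1 ± 0.306% in SYD1 and 11.7 ± 0.237% in SYD2. On ABA the share of ABF1 was 2.69 ± 0.371%, 5.34 ± 0.473% and 4.70 ± 0.399%.

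**Figure D4:**
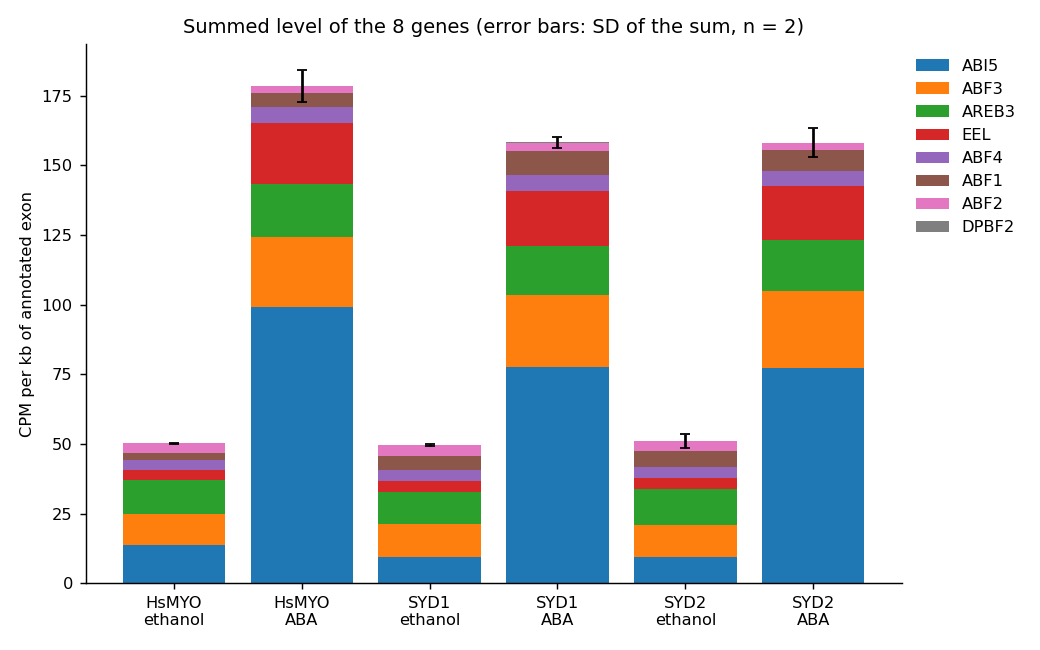
Stacked bars of mean CPM per kb of annotated exon for the 8 genes in the 6 groups, with error bars for the SD of the sum (n = 2). Without ABA the sums lie between 49.6 and 51.0 CPM per kb, and on ABA ABI5 is the largest segment in each line.

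The next question is whether knockdown of SYD changed the level of these genes. ABI5 was lower and ABF1 higher in the knockdown lines under both treatments, and the other 5 tested members did not pass the test in either. Both knockdown lines are compared with the same 2 HsMYO libraries in each treatment. Without ABA, over both lines, 1 of 7 members was higher (17.7% of all tested genes were higher) and 1 lower (14.5%). On ABA 1 was higher (16.8%) and 1 lower (15.9%). These counts of members are near the shares over all genes. With DESeq2 the calls over all genes on ABA were 2872 higher and 1732 lower, against 3290 higher and 3111 lower with edgeR, while the members called were ABI5 and ABF1 with both tools.

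Over both knockdown lines, the level of ABI5 was 1.44-fold below HsMYO without ABA (log2 difference -0.52 ± 0.08, adjusted p = 0.00022). On ABA the gap was 1.28-fold (-0.36 ± 0.07, adjusted p = 0.0012). All 4 knockdown libraries lay under both control libraries in each treatment. The share of all tested genes that separate the lines in this way was not counted, for ABI5 or for the other genes described here. The differences of ABI5 lay at the 7.62nd and the 13.8th percentile of all tested genes. Line by line, ABI5 differed by -0.53 ± 0.10 in SYD1 (adjusted p = 0.0011) and -0.52 ± 0.10 in SYD2 (adjusted p = 0.0011) without ABA. On ABA it differed by -0.36 ± 0.08 in both SYD1 (adjusted p = 0.005) and SYD2 (adjusted p = 0.0046). The call on ABA ended in SYD1 without its ABA replicate 1 (-0.33, adjusted p = 0.058) and in SYD2 without its ABA replicate 2 (-0.31, adjusted p = 0.065), while the call over both lines held in all 12 such fits.

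ABF1 was 2.10-fold higher without ABA (log2 difference 1.07 ± 0.13, adjusted p = 1.9e-05) and 1.65-fold higher on ABA (0.72 ± 0.11, adjusted p = 0.00017), with no overlap of libraries. It lay at the 95.9th and the 93.2nd percentile of all tested genes. Without ABA the difference was 0.94 ± 0.15 in SYD1 (adjusted p = 3e-04) and 1.19 ± 0.15 in SYD2 (adjusted p = 2.4e-05). On ABA it was 0.82 ± 0.13 in SYD1 (adjusted p = 0.00025) and 0.63 ± 0.13 in SYD2 (adjusted p = 0.0023). ABF1 shares 123 exonic bases with AT1G49730 on the opposite strand, which differed by -0.35 without ABA and -0.40 on ABA in log2, and the strand setting of the counting is not given in the sources used.

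Each line thus had 2 of 7 members called in each treatment, ABI5 and ABF1. The background was 26.0% of all tested genes for SYD1 and 25.9% for SYD2 without ABA, and 26.2% and 25.5% on ABA. The count of 2 of 7 is near it. For the 5 members that did not pass over both lines, the log2 differences lay between -0.02 (AREB3) and 0.21 (EEL) without ABA, with 95% intervals within -0.19 and 0.45. On ABA they lay between -0.14 (EEL) and 0.12 (ABF2), with intervals within -0.29 and 0.34.

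**Figure D5:**
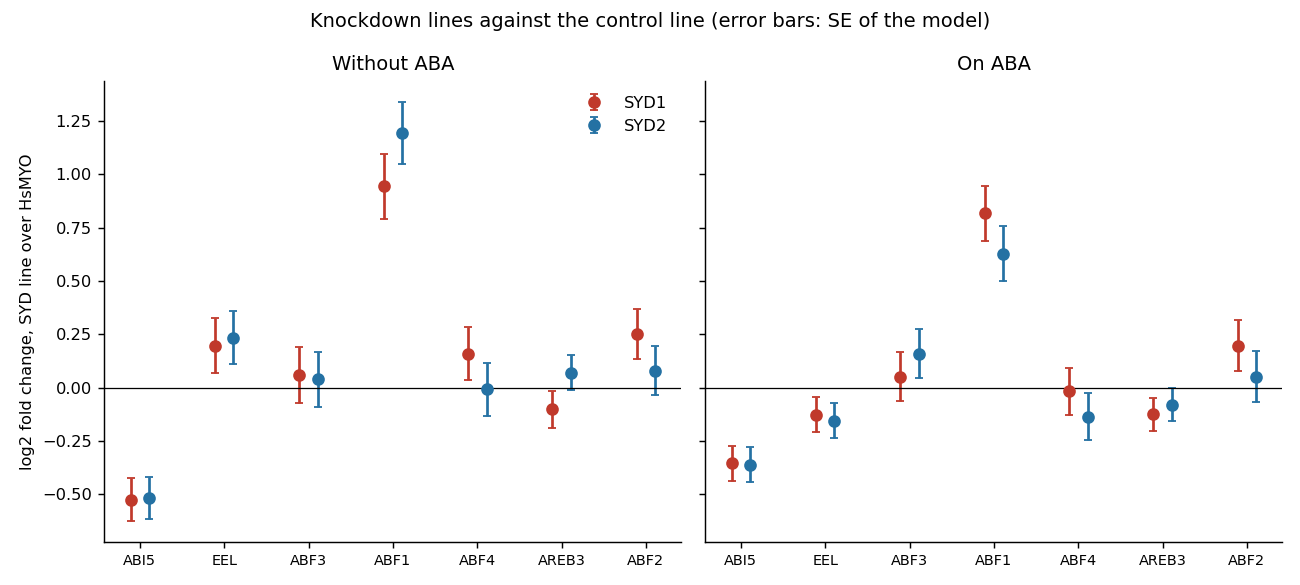
The log2 difference of SYD1 (red) and SYD2 (blue) from HsMYO for the 7 tested members, without ABA on the left and on ABA on the right, with error bars for the standard error of the model. ABI5 lies below 0 and ABF1 above 0 in all 4 comparisons.

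The third question is whether the ABA response of these genes differed between lines. No member passed in the test of that difference over both knockdown lines with edgeR (0 of 7, against 5.14% of all tested genes), 1 had an unadjusted p under 0.05, and DESeq2 called 0. The response of ABI5 differed by 0.16 ± 0.11 in log2 (95% interval -0.07 to 0.40, adjusted p = 0.46). The response of EEL was smaller in the knockdown lines by -0.36 ± 0.13 (unadjusted p = 0.015, adjusted p = 0.14) and that of ABF1 by -0.35 ± 0.17 (unadjusted p = 0.064, adjusted p = 0.3). In SYD1 alone edgeR called 0 of 7 (2.84% of all genes), with 0 under an unadjusted p of 0.05 and 0 with DESeq2. In SYD2 alone it called 0 of 7 (3.70% of all genes) and DESeq2 0, with 2 under an unadjusted p of 0.05. These were ABF1 (-0.57, unadjusted p = 0.011, adjusted p = 0.14) and EEL (-0.39, unadjusted p = 0.019, adjusted p = 0.19). Without HsMYO on ABA replicate 1 ABF1 passed in SYD2 (-0.73, adjusted p = 0.034).

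The ratio of ABI5 to EEL counts was also taken in each library. Without ABA it was 6.60 and 4.78 in the HsMYO libraries, 3.59 and 3.22 for SYD1 and 3.09 and 3.55 for SYD2. On ABA it was 6.66 and 6.07 in HsMYO, 5.26 and 5.60 in SYD1 and 5.36 and 5.68 in SYD2. In each treatment both HsMYO libraries had more ABI5 per EEL than any knockdown library, a description with no test. Over both knockdown lines ABI5 passed the test against HsMYO in each treatment (log2 difference -0.52 without ABA and -0.36 on ABA). EEL passed in neither (0.21 and -0.14). The part of each gene in the ratio was not tested. SYD1 and SYD2 were also set against each other. With edgeR 0 of 7 members were called without ABA (0.688% of all tested genes) and 0 on ABA (0.846%), with 0 under an unadjusted p of 0.05 and 0 with DESeq2 in both.

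Of 5 further group A bZIP genes, GBF4 (AT1G03970), AT5G44080 and FD (AT4G35900) were tested, and AT5G42910 and FDP were not. GBF4, a G-box binding factor, rose on ABA in HsMYO (0.50 ± 0.15, adjusted p = 0.011), the only call of the 3 (26.9% of all tested genes rose). In SYD1 and SYD2 0 of 3 passed (21.7% and 19.4% of all tested genes rose). GBF4 changed there by 0.35 (adjusted p = 0.089) and 0.31 (adjusted p = 0.12). Its difference in response over both knockdown lines did not pass (-0.17, adjusted p = 0.68). Without ABA 0 of 3 passed between the lines (over both knockdown lines 17.7% of all tested genes were higher and 14.5% lower). With ABA AT5G44080 was lower over both knockdown lines (-0.28 ± 0.09, adjusted p = 0.021), where 15.9% of all tested genes were lower.

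Genes upstream of the bZIP factors moved both ways on ABA in HsMYO, where 26.9% of all tested genes rose and 27.1% fell. Of 11 tested ABA receptor genes 7 fell and 2 rose, with a median of -0.81. PYL6 fell most (-3.34, adjusted p = 3.3e-12) and PYL13 rose (3.17, adjusted p = 1.8e-06). Of 9 clade A PP2C phosphatase genes, which damp the signal, 8 rose and ABI1 fell (-0.70, adjusted p = 7.4e-05), with AHG1 (4.61) and HAI3 (4.04) the furthest up. Of 5 SnRK2 kinase genes 2 rose and 3 fell, SNRK2.7 most (-2.97, adjusted p = 1.2e-09), while OST1, which encodes the kinase of guard cells, fell by 0.45 on the log2 scale. Over both knockdown lines the background was 17.7% of all tested genes higher and 14.5% lower without ABA, and 16.8% higher and 15.9% lower on ABA. Of the 11 receptor genes 5 were higher and 0 lower without ABA, and 6 higher and 1 lower on ABA. Of the PP2C genes 3 were higher and 2 lower without ABA, and 1 higher and 5 lower on ABA. ABI1 was higher in both settings (1.30 and 0.59) and ABI2 lower in both (-0.83 and -0.85). Of the SnRK2 genes 1 was higher and 1 lower without ABA, and 1 higher and 2 lower on ABA, with SNRK2.8 lower in both (-0.72 and -0.37).

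The AFP proteins bind ABI5 and are known to lower its level or activity. Of their 4 genes, 3 rose on ABA in HsMYO (26.9% of all tested genes did) and 1 fell (27.1%). AFP1 rose by 3.00 ± 0.11 in log2 (adjusted p = 7.1e-12), AFP2 by 1.65 and AFP3 by 1.15, and TMAC2 fell by 0.42. The counts of genes called were 3 and 1 in SYD1 and SYD2 as well. Over both knockdown lines AFP2 (-0.53, adjusted p = 0.0011) and AFP3 (-0.38, adjusted p = 0.0042) were lower without ABA, and AFP2 was lower on ABA (-0.39, adjusted p = 0.0013).

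Among 18 tested genes for proteins that act on ABI5 or its promoter, 5 rose and 4 fell on ABA in HsMYO, with a median of 0.12. These counts are near the background (26.9% of all tested genes rose and 27.1% fell). MFT, a phosphatidylethanolamine-binding protein of the seed (2.49), and ICE1 (1.00) rose, while RAV1 (-5.66) and WRKY18 (-1.31), which encode repressors of ABI5, fell. Over both knockdown lines without ABA 5 were higher (17.7% of all tested genes) and 2 lower (14.5%). WRKY40, for another repressor of ABI5 (1.59, adjusted p = 0.00032), and PIF1 (0.48, adjusted p = 4.3e-05) were higher. ABI3, for the B3 factor that acts with ABI5 in seeds (-0.52, adjusted p = 0.00016), and ICE1 (-0.52, adjusted p = 1.1e-05) were lower. On ABA 3 were higher (16.8%) and 2 lower (15.9%), with PIF1 higher (0.46) and ICE1 lower (-0.36).

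Of 12 tested target genes of ABI5 and the ABFs, 11 rose and 0 fell on ABA in HsMYO (26.9% and 27.1% of all tested genes). Their median log2 change was 5.61. The list was chosen as targets of these factors, with earlier results of these data known, so the count is a description. RD29A (7.09), KIN1 (7.07), TSPO (6.57) and EM6 (6.27) rose furthest. In SYD1 and SYD2 11 rose in each (21.7% and 19.4% of all tested genes), with medians of 4.76 and 4.81. In the test of the difference in ABA response over both knockdown lines 0 of 12 targets passed (5.14% of all tested genes). Their median difference was -0.17. In SYD1 alone (2.84%) and SYD2 alone (3.70%) 0 passed as well. Over both knockdown lines without ABA 1 target was higher and 6 were lower, where 17.7% of all tested genes were higher and 14.5% lower. On ABA 1 was higher and 8 were lower, against 16.8% and 15.9% of all tested genes. The medians were -0.23 and -0.41, against 0.01 and -0.02 over all genes. Without ABA the furthest were EM6 (-1.84, adjusted p = 0.0012), EM1 (-1.42, adjusted p = 0.0017), PHO1, for a phosphate exporter (-0.71), and RD29B (-0.61). On ABA they were EM6 (-2.97 ± 0.17, adjusted p = 7.4e-09), KIN1 (-2.21), EM1 (-0.84) and PHO1 (-0.73). EM6, which encodes a late embryogenesis protein, stood on ABA at 458 ± 24.9 CPM in HsMYO, 58.0 ± 13.7 in SYD1 and 59.3 ± 10.8 in SYD2, where ABI5 stood at 209 ± 2.51, 164 ± 1.68 and 163 ± 8.43 CPM. The gene DGAT1, for an enzyme of oil synthesis, was higher in both treatments (0.21 and 0.22). KIN1 and KIN2 are near-identical, and the split of their reads is uncertain.

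Among genes tied to DPBF2 in the embryo, 7 of 11 were tested. On ABA in HsMYO, where 26.9% of all tested genes rose and 27.1% fell, 2 rose, FUS3 (2.43, adjusted p = 0.00031) and FAD3 (0.38), and bZIP53 fell (-0.41). Over both knockdown lines 2 were higher and 0 lower in each treatment (17.7% and 14.5% of all tested genes without ABA, 16.8% and 15.9% on ABA). Without ABA these were FUS3 (1.83, adjusted p = 0.006) and FAD3 (0.53), and on ABA CRC, for a storage protein (2.58, adjusted p = 0.00084), and FAD3 (0.50).

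Markers of stages and tissues also differed between groups. The summed level of 5 stored seed mRNAs on ABA was 685 to 853 CPM in HsMYO, 1199 to 1415 CPM in SYD1 and 818 to 1183 CPM in SYD2. Without ABA it was 63.9 to 219 CPM, 161 to 436 CPM and 131 to 203 CPM. These genes did not all differ the same way over both knockdown lines. On ABA CRC (log2 difference 2.58), SESA3 (2.03) and SESA1 (1.77) were higher. OLEO1 was lower (-1.03, adjusted p = 0.014) and CRA1 did not pass (0.70, adjusted p = 0.13). Without ABA SESA3 (1.82) and SESA1 (1.52) were higher and the others did not pass. For 3 greening genes the sum without ABA was 2553 to 2613 CPM in HsMYO, 3638 to 3919 CPM in SYD1 and 3269 to 3872 CPM in SYD2. On ABA their sum was 1852 to 2067, 2172 to 2199 and 2363 to 2614 CPM. RBCS1A carried most of this sum and changed by -0.10 to -0.35 in log2 on ABA. PORB and LHCB1.1 fell in each line, with log2 changes of -4.29 and -3.09 in HsMYO, -3.73 and -5.90 in SYD1 and -3.68 and -3.14 in SYD2. The median of the 3 genes was -3.09, -3.73 and -3.14. Over both knockdown lines without ABA 3 of 3 were higher (17.7% of all tested genes), LHCB1.1 by 2.17, PORB by 0.95 and RBCS1A by 0.36. With ABA (16.8%), PORB (1.53) and RBCS1A (0.22) were higher and LHCB1.1 did not pass (0.74, adjusted p = 0.36). For 3 root hair genes the sum without ABA was 20.8 to 22.6, 38.9 to 48.1 and 30.2 to 36.7 CPM, and on ABA 22.3 to 23.4, 36.0 to 37.2 and 33.3 to 36.0 CPM, but RHD6 carried most of it. On ABA in each line RHD6 rose while COBL9 and EXPA7 fell, so 1 of 3 rose and 2 fell. The summed counts of COBL9 were 106 without ABA and 1 on ABA for HsMYO, 344 and 1 for SYD1, and 259 and 5 for SYD2. EXPA7 was at 0 on ABA in all lines. Over both knockdown lines without ABA 3 of 3 root hair genes were higher (17.7% of all tested genes), EXPA7 by 3.02, COBL9 by 1.69 and RHD6 by 0.47. With ABA only RHD6 passed, as higher (0.64). For 5 seed coat genes, of which 2 were tested, the sum was 75.1 to 76.4, 45.9 to 49.5 and 48.4 to 50.7 CPM without ABA and 45.8 to 46.4, 33.3 to 34.7 and 40.1 to 42.9 CPM on ABA. TT12 was at 0 in all groups but HsMYO on ABA, and TT8 was at 0 in SYD1 and SYD2 on ABA. For 6 endosperm genes the sum was 2896 to 4491, 2974 to 3016 and 2427 to 3661 CPM without ABA. On ABA it was 3284 to 3555, 3670 to 3982 and 4758 to 4985 CPM. ZOU was at 0 in all groups but SYD2 without ABA. Single genes differed from this sum. On ABA in HsMYO MAN7 (2.65), EXPA2 (0.94) and MAN6 (0.39) rose. EPR1 (-0.52, adjusted p = 0.053) and MAN5 (0.13) did not pass. In SYD2 against HsMYO on ABA only EPR1 passed, as higher (0.74, adjusted p = 0.021). Over both knockdown lines only MAN7 passed, higher without ABA (0.45) and on ABA (0.25). The part of these markers in the differences of ABI5 and ABF1 was not tested.

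Genes whose pattern over the 12 libraries was most like that of each member were listed by Pearson correlation of log2 CPM, which largely follows the shared split by ABA. Closest to ABI5 were AT5G60760 (r = 0.998), AIRP2 (AT5G01520, r = 0.998), for a RING ubiquitin ligase, AT3G03620 (r = 0.997), ERD2 (AT1G29330, r = 0.997) and ATOEP16-2 (AT4G16160, r = 0.997), and 667 genes exceeded 0.95. For EEL they were DAA1 (r = 0.997), ATTPS6 (0.996) and AT1G65090 (0.996), with 736 genes over 0.95. For ABF3 HYP1 (0.991), SBE2.1, for a starch branching enzyme (0.989), and AT1G01920 (0.989) came first, and for AREB3 RHB1A (0.992), AT3G44006 (0.989) and AT1G20870 (0.984). ABF1 had 57 genes over 0.95, led by PRR5, for a pseudo-response regulator of the circadian clock (0.984), AT3G05160 (0.979) and AT3G56680 (0.978). ABF4 had 30, led by UPL6, for a ubiquitin ligase (0.971), AT1G21920 (0.970) and AT3G25840 (0.965). ABF2 had 4, led by AT2G47370 (0.982), AT2G04305 (0.960) and AT5G18840 (0.953). Among the members themselves ABI5 correlated with EEL at r = 0.98 and with ABF3 at 0.96, with ABF1 at 0.47 and with ABF2 at -0.86, over the same 12 libraries.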

How the data were processed

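The authors deposited 1 table of unnormalised read counts by gene for the 12 libraries. Per the submitters' processing notes, the authors trimmed reads with Trimmomatic 0.39 and aligned them with STAR 2.7.10a to TAIR10. Per the labels' protocols, a stranded mRNA kit and 100 bp paired reads were used. The counting program, its strand setting, its handling of multiply mapped reads and the version of the annotation were not stated. No exonic stretch of 50 bases of any member recurred elsewhere in the TAIR10.1 genome.

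The counts were fitted with edgeR 4.0.16 under R 4.3.3 (filterByExpr, minimum count 10; TMM factors; 1 mean per group over all 12 libraries, 6 residual degrees of freedom; 2-sided quasi-likelihood F-tests), tested on simulated data first. P-values were Benjamini-Hochberg adjusted over 19612 genes for each of 14 contrasts, with calls made below an adjusted p of 0.05. The 6 groups and 2 replicates per group come from the sample labels. CPM values are means of 2 libraries with their SD. Replicates differed by more than counting error (chi-square over degrees of freedom 2.4 to 13.3). P-values set each difference against the spread between libraries of the same group. They do not cover variation between independent lines, so they speak for these 3 lines only. Limits from a count of 3 cover counting error only, as reads amplified from the same molecule are counted separately.

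Sequences, positions and exon lengths were read from the TAIR10.1 RefSeq genome and annotation, to which 36632 of 36795 entries matched by locus tag. Alternatives were DESeq2 1.42.0, RLE scaling, no low-count filter, a stricter filter (minimum count 50), a fit of only the groups compared, a replicate block, and leaving out each library. Named genes were all members, some of the called list genes with the 4 largest changes of a comparison, and the 5 (ABI5) or 3 genes most correlated with each member. Not every called list gene of that rank was named. Other genes named were added after their values were seen. The members and gene lists were chosen with earlier results of these data known.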

Additional observations from a re-analysis of the deposited data

How the results depend on the processing

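The 98 member results (7 members in 14 comparisons) were each recomputed under 18 alternatives. Of 1764 values 1737 kept their call, 20 lost it, 7 gained one and 0 called values changed sign; 59 uncalled values took the opposite sign, by at most 0.209 in log2. The lost calls were 18 of ABF2 and 2 of ABI5, and the gained calls were of ABF1 in SYD2. Leaving out 1 library at a time gave 6 to 7 members called for ABA in HsMYO and in SYD1, 5 to 7 in SYD2, 1 to 2 for SYD1 and for SYD2 against HsMYO on ABA, and 0 to 1 for the difference in response of SYD2; the other counts did not change. The replicate numbers were not treated as pairs, as the labels state no pairing. The residual correlations of same-numbered libraries between groups ran from -0.03 to 0.15 with a median of 0.07, and 13 of 15 were over 0. Fitted as a replicate block, the replicate numbers gave 1 member called instead of 0 for the SYD2 difference in response (ABF1, -0.56, adjusted p = 0.043). They also gave a call of ABF1 for ABA in SYD2 (0.32, adjusted p = 0.016). ABF1 in SYD2 was also called with no low-count filter (adjusted p = 0.038) and when the fit held the groups compared alone (0.049), while ABF2 lost its call with only the groups compared in HsMYO (0.066) and SYD2 (0.077) and, in SYD2, with no filter (0.057). The cause was not tested.

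Over all genes, the difference in response was called for 1008 genes in the main fit, 1817 with no filter and 1628 with the block; for SYD1 alone 557, 1216 and 912; for SYD2 alone 726, 1518 and 1254. SYD1 against SYD2 gave 135 genes without ABA, 616 with no filter and 308 with the block. On ABA it gave 166, 471 with no filter and 410 with only the groups compared. With 2 libraries per group the precision is limited for every member, and the counts of DPBF2 are too low for a comparison.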
